A study of Mus musculus with 9 samples.

Results

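The genes described here are 7 matrix proteases (Mmp2, Mmp3, Mmp9, Mmp14, Adamts1, Adamts4 and Adamts5) and 3 of their tissue inhibitors (Timp1, Timp2 and Timp3), 10 of the 55487 genes in the count table. They were chosen by name, with earlier results of these data known, as were the gene lists below. They were followed in gastrocnemius, a calf muscle, of wild-type C57BL/6 mice (C57BL/6J in the study's text), which were male per the labels, whereas the methods of the study name female animals. There were 4 Control libraries from normally caged mice, 2 Unloading libraries from mice kept for 10 days with the hindlimbs lifted off the ground by the tail, and 3 Reloading libraries. Reloading mice had been unloaded in the same way and were then returned to normal cage activity for 1 day, so both treated groups share the unloading. The age was not given in the sources used here, and the labels do not say how the numbered samples relate to animals, so the p-values measure the spread between these samples.

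Matrix metalloproteases (MMPs) are zinc enzymes that cut collagens, laminins and other proteins outside the cell. ADAMTS proteases are secreted relatives that cut proteoglycans such as versican and aggrecan, and TIMPs bind the active site of the proteases and block them. In skeletal muscle these enzymes take part in rebuilding the matrix around the fibres after injury and during regrowth. Their activity is also set after translation, by removal of a propeptide and by inhibitor binding, and the RNA levels given here do not measure it.

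The libraries held 9252443 to 19612101 counted read pairs, and 1 read pair was worth 0.051 to 0.108 counts per 1000000 (CPM) before scaling. All 7 skeletal myofibre markers were present, with a summed level of 89360 to 133800 CPM over the libraries. Control 2 and Reloading 1 held skin keratinocyte transcripts, with 300.7 and 134.8 CPM summed over 7 markers against 2.68 to 4.46 CPM in the other libraries. Calls that were lost or gained without both are named beside the gene. Levels are CPM with library scaling by TMM (trimmed mean of M-values), and differences are log2 fold changes ± SE from edgeR's quasi-likelihood fit of all 9 libraries, called at an adjusted p under 0.05. TMM holds the typical gene level, whereas scaling by library totals alone moved the all-gene median log2 fold change from 0.03 to 0.27 in Reloading against Unloading, and the share of higher genes among all called genes from 49.3% to 82.8%. In Reloading against Control the same scaling moved the median from 0.01 to 0.25 and the share from 50.9% to 80.2%.

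Of the 10 members, 9 had enough counts to be tested, and Mmp3 did not. Between Unloading and Control, Mmp14 rose and Adamts1 fell, and the other 7 tested members did not pass the threshold. Of all 14851 genes tested, 4.4% were called higher and 5.5% lower in this comparison. Between Reloading and Unloading, Timp1 and Adamts1 rose and Timp2 fell, beside 18.5% of all genes called higher and 19.0% called lower. Between Reloading and Control, Timp1, Adamts1, Mmp14, Adamts5 and Timp3 rose and no member fell, beside 22.1% of all genes called higher and 21.3% lower. Adamts4 was also past the threshold in both comparisons of Reloading, but it was tested only because of its Reloading counts, so these calls are given as a description with its counts and are not among the rises named here. The 3 comparisons share libraries, so they are not separate evidence on a gene. Without Adamts4 the median log2 fold change of the other 8 tested members was 0.20, 0.08 and 0.33 in these comparisons, beside -0.0038, 0.03 and 0.01 over all tested genes.

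**Figure D1:**
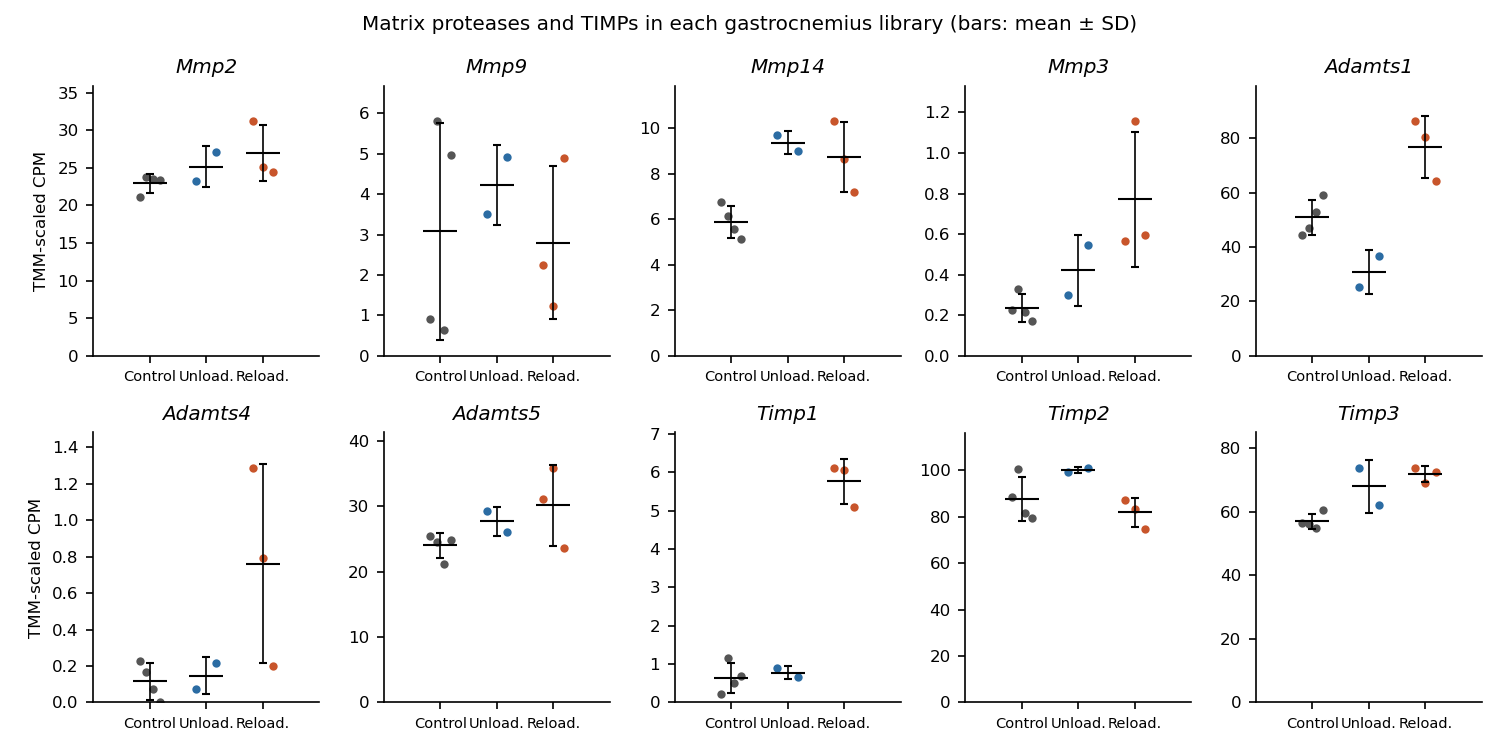
Each panel plots the TMM-scaled CPM of 1 gene (vertical axis, from 0) in the Control (n = 4), Unloading (n = 2) and Reloading (n = 3) libraries as points, with black bars for the mean ± SD. Timp1 stands at 5.10 to 6.13 CPM in Reloading against 1.16 or less elsewhere, Adamts1 is lowest in Unloading and highest in Reloading, and Mmp14 is higher in both treated groups than in Control.

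Timp1, a secreted inhibitor of most MMPs that also binds the pro-form of MMP9, moved most among the inhibitors. The gene (ENSMUSG00000001131) spans chrX:20870166-20874735 on the plus strand of GRCm38. Control 1 to Control 4 held 2, 14, 7 and 8 read pairs of Timp1, Unloading 1 and Unloading 2 held 12 each, and Reloading 1 to Reloading 3 held 76, 84 and 77. In CPM these were 0.226, 1.16, 0.500 and 0.686 in Control, 0.898 and 0.656 in Unloading, and 6.13, 6.08 and 5.10 in Reloading. Every Reloading library was higher than all 6 others, while the Unloading values lay inside the Control range. Timp1 rose by 2.90 ± 0.33 on the log2 scale (7.47-fold) in Reloading against Unloading, with an adjusted p of 1.21e-05. Against Control it rose by 3.10 ± 0.28 (8.57-fold), with an adjusted p of 7.49e-07. The difference between Unloading and Control was 0.20 ± 0.43, with an adjusted p of 0.813. Both calls in Reloading held under all 18 alternatives, between 2.66 and 3.52.

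Several cell type markers also differed in Reloading, some higher and others lower. The summed level of 8 macrophage markers was 143.2 to 161.1 CPM in Reloading, 67.9 to 69.0 in Unloading and 66.0 to 80.1 in Control, and 7 of the 8 were called higher in Reloading against Unloading. In that comparison 18.5% of all tested genes were called higher and 19.0% lower, and these shares stand beside each marker count below. Cd68, a lysosomal protein of macrophages, stood at 42.9 to 50.4 CPM in Reloading, 2.51 to 3.59 in Unloading and 1.69 to 2.98 in Control, and the other 7 markers summed to 100.3 to 110.7, 64.3 to 66.5 and 63.15 to 77.1 CPM. For 6 endothelial markers the sums were 248.5 to 304.1, 139.8 to 140.6 and 145.6 to 166.6 CPM, and 5 were called higher. For 4 tenocyte markers they were 16.4 to 23.3, 10.8 to 12.6 and 11.3 to 13.8 CPM, and 3 were called higher. For 8 markers of fibroblasts and fibro-adipogenic progenitors, the stromal cells that lay down matrix, the sums were 792.2 to 816.9 CPM in Reloading, 1197 to 1312 in Unloading and 829.8 to 1031 in Control, with 2 called higher and 3 lower in Reloading against Unloading. Most of that sum was Gsn, or gelsolin, at 577.8 to 590.6, 967.8 to 1058 and 623.9 to 768.4 CPM in the same order, and the other 7 markers summed to 214.3 to 229.1, 229.6 to 254.5 and 205.8 to 263.0 CPM. For 6 smooth muscle and pericyte markers the sums were 413.6 to 441.8, 386.0 to 427.6 and 334.2 to 370.4 CPM, with 5 called higher and 1 lower in Reloading against Unloading. The 5 include Cnn1, tested only with the Reloading libraries. Most of the sum was Rgs5, which was called lower, at 259.2 to 272.4, 305.4 to 340.4 and 253.9 to 291.0 CPM in the same order. The other 5 markers summed to 154.4 to 169.4, 80.65 to 87.28 and 72.29 to 87.96 CPM. The 7 skeletal myofibre markers summed to 89360 to 99860, 119500 to 122700 and 121100 to 133800 CPM, and 5 were called lower. Of 4 satellite cell markers 1 was called higher and 0 lower, and of 4 adipocyte and 5 erythrocyte markers 0 were called. The part of these cell types in the results on Timp1 and on the members below was not tested, and in whole muscle a change in the number of cells of a type and a change in RNA per cell cannot be told apart.

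Timp2, which inhibits MMPs and, bound to MMP14, takes part in the activation of pro-MMP2, was the most abundant member. Its level was 88.5, 100.7, 81.6 and 79.6 CPM in Control 1 to Control 4, 99.3 and 101.1 in Unloading, and 87.1, 83.5 and 74.9 in Reloading. The Reloading values lay below both Unloading values and inside or below the Control range. Timp2 fell by 0.29 on the log2 scale (SE 0.10, adjusted p = 0.0298) in Reloading against Unloading. With scaling by library totals the difference was -0.04 (adjusted p = 0.747), and without Reloading 3, Unloading 1 or Unloading 2 it was between -0.31 and -0.23 with adjusted p between 0.0815 and 0.107. Timp2 differed from Control by 0.19 ± 0.09 in Unloading (adjusted p = 0.207) and by -0.10 ± 0.08 in Reloading (adjusted p = 0.366).

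Timp3, the TIMP that binds to the matrix and also inhibits ADAM and ADAMTS proteases, was higher in Reloading than in Control. Its level was 56.3, 56.2, 54.7 and 60.5 CPM in Control, 73.8 and 62.1 in Unloading, and 73.7, 68.9 and 72.5 in Reloading. All values of both treated groups lay above the highest Control value. Timp3 rose by 0.33 ± 0.07 in Reloading against Control (1.26-fold, adjusted p = 0.00177). Against Control, Unloading differed by 0.25 ± 0.08 with an adjusted p of 0.0631, which fell to between 0.0259 and 0.0494 in a robust fit, with no filter on low counts and without Unloading 2. Reloading and Unloading differed by 0.08 ± 0.09 (adjusted p = 0.497), or by 0.33 (adjusted p = 0.0067) with scaling by library totals. Timp3 shares 1733 exon bases with Syn3 on the opposite strand, and read pairs that touch exons of both genes were left out by the counting, which did not use strand.

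Adamts1, a protease that cuts versican and aggrecan, moved in opposite directions in unloading and reloading. The gene (ENSMUSG00000022893) spans chr16:85793827-85803113 on the minus strand. Its counts were 393, 569, 738 and 690 in Control, 336 and 669 in Unloading, and 1070, 1110 and 970 in Reloading. In CPM these were 44.3, 47.2, 52.7 and 59.2 in Control, 25.2 and 36.6 in Unloading, and 86.2, 80.3 and 64.2 in Reloading. The 3 groups did not overlap: both Unloading values were below every Control value, and all Reloading values were above. Adamts1 fell by 0.71 on the log2 scale (SE 0.15, adjusted p = 0.0094) in Unloading against Control. It rose by 1.31 ± 0.16 (2.47-fold, adjusted p = 2.03e-05) in Reloading against Unloading and by 0.59 ± 0.13 (1.51-fold, adjusted p = 0.00147) against Control. The fall rests on 2 Unloading libraries: without Unloading 1 it was -0.48 with an adjusted p of 0.202, in a fit in which 121 genes in all were called, against 1470 with it. Both rises held under all 18 alternatives.

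Adamts4, an aggrecan-cutting protease, was near the limit of detection. Control 1 to Control 4 held 2, 2, 1 and 0 read pairs, Unloading 1 and 4, and Reloading 16, 11 and 3. It passed the filter on low counts only through Reloading, so a difference in that group was needed for it to be tested. The fitted difference was 2.17 ± 0.81 (adjusted p = 0.0463) against Unloading and 2.67 ± 0.75 (adjusted p = 0.00984) against Control. Summed over the libraries of a group and scaled, the ratio of Reloading to Unloading was 4.60 with an exact 95% interval of 1.77 to 15.2, and that of Reloading to Control was 6.76 (2.60 to 22.3), intervals that cover counting error only. The value of Reloading 3, 0.199 CPM, lay inside the range of the other groups. Without both libraries with skin transcripts Adamts4 failed the filter and was not tested, and in DESeq2 it had no value against Unloading. Without Unloading 1, Unloading 2 or Control 1 the adjusted p against Unloading was 0.229, 0.107 and 0.0508.

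Adamts5, another aggrecanase, had 25.4, 24.5, 21.2 and 24.9 CPM in Control, 29.3 and 26.1 in Unloading, and 31.0, 35.9 and 23.6 in Reloading. The Reloading values spread widely, and Reloading 3 lay inside the Control range. Adamts5 rose by 0.33 ± 0.12 in Reloading against Control with an adjusted p of 0.0366. The call was lost in DESeq2 (adjusted p = 0.0575), without Control 3, Control 4, Reloading 1 or Reloading 2 (0.0506 to 0.259) and without both libraries with skin transcripts (0.113). Unloading differed from Control by 0.21 ± 0.14 (adjusted p = 0.36), and Reloading from Unloading by 0.12 ± 0.14 (adjusted p = 0.52).

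Mmp14, a membrane-anchored collagenase that activates pro-MMP2, was higher in both treated groups. Its counts were 60, 74, 78 and 60 in Control, 130 and 165 in Unloading, and 128, 120 and 109 in Reloading. In CPM these were 6.77, 6.14, 5.57 and 5.15 in Control, 9.73 and 9.02 in Unloading, and 10.3, 8.68 and 7.22 in Reloading. All 5 treated libraries lay above every Control library, and the treated groups overlapped. Mmp14 rose by 0.67 ± 0.15 (1.59-fold, adjusted p = 0.014) in Unloading and by 0.57 ± 0.14 (1.48-fold, adjusted p = 0.00459) in Reloading, each against Control. Without Unloading 1 the former was 0.62 with an adjusted p of 0.157. Reloading and Unloading differed by -0.10 ± 0.16 (adjusted p = 0.628).

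Mmp2, a gelatinase that MMP14 activates, had 21.1, 23.7, 23.5 and 23.4 CPM in Control, 23.3 and 27.1 in Unloading, and 31.2, 25.2 and 24.4 in Reloading. The Reloading values lay above all Control values by small margins. The differences were 0.13 ± 0.11 in Unloading against Control (adjusted p = 0.48), 0.09 ± 0.12 in Reloading against Unloading (adjusted p = 0.567) and 0.23 ± 0.10 in Reloading against Control (adjusted p = 0.0787). With library totals the difference between Reloading and Unloading was 0.34 (adjusted p = 0.0274). That between Reloading and Control was 0.47 with an adjusted p of 0.00112 with library totals, and 0.29 with 0.0464 without Reloading 3.

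Mmp9, the other gelatinase, which neutrophils and macrophages carry, varied more between libraries of a group than between groups. Its counts were 8, 70, 9 and 58 in Control, 47 and 90 in Unloading, and 28, 17 and 74 in Reloading. In CPM these were 0.902, 5.80, 0.643 and 4.98 in Control, 3.52 and 4.92 in Unloading, and 2.26, 1.23 and 4.90 in Reloading. Control 2 and Control 4 stood apart from Control 1 and Control 3, and all treated libraries lay between these pairs. The differences were 0.45 ± 0.59, -0.58 ± 0.62 and -0.13 ± 0.57 in Unloading against Control, Reloading against Unloading and Reloading against Control, with adjusted p of 0.679, 0.485 and 0.87. With no filter on low counts the difference between Reloading and Unloading was -0.61 ± 0.23 (adjusted p = 0.0412). The counts of Mmp9 are the same in that fit, and only its SE was smaller, so this value is given as a description. Summed over 8 neutrophil markers, the level was 5.98, 2.49, 0.429 and 2.57 CPM in Control 1 to Control 4, 1.35 and 0.984 in Unloading, and 2.42, 1.74 and 4.70 in Reloading. These sums rest on few read pairs: S100a8 and S100a9 held 2 to 47 in a library and the other 6 markers together 4 to 29, with Cxcr2 and Ly6g at 0 in Unloading. Their part in the spread of Mmp9 was not tested.

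Mmp3, or stromelysin-1, which cuts proteoglycans, fibronectin and pro-MMPs, had 2, 4, 3 and 2 read pairs in Control, 4 and 10 in Unloading, and 7, 16 and 9 in Reloading. In CPM the Reloading values of 0.564, 1.16 and 0.596 lay above the Unloading values of 0.299 and 0.546 and the Control range of 0.172 to 0.332. The scaled ratio of summed counts was 3.28 (exact 95% interval 1.61 to 7.21) for Reloading to Control, 1.75 (0.908 to 3.55) for Reloading to Unloading and 1.87 (0.79 to 4.56) for Unloading to Control. These intervals cover counting error only and not the spread between libraries. With no filter on low counts, edgeR gave Reloading against Control a difference of 1.68 ± 0.51 with an adjusted p of 0.00693, and adjusted p of 0.433 and 0.602 in the other comparisons. That fit gave some genes far smaller adjusted p than the main fit, such as 2.53e-32 instead of 2.03e-05 for Adamts1 in Reloading against Unloading.

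**Figure D2:**
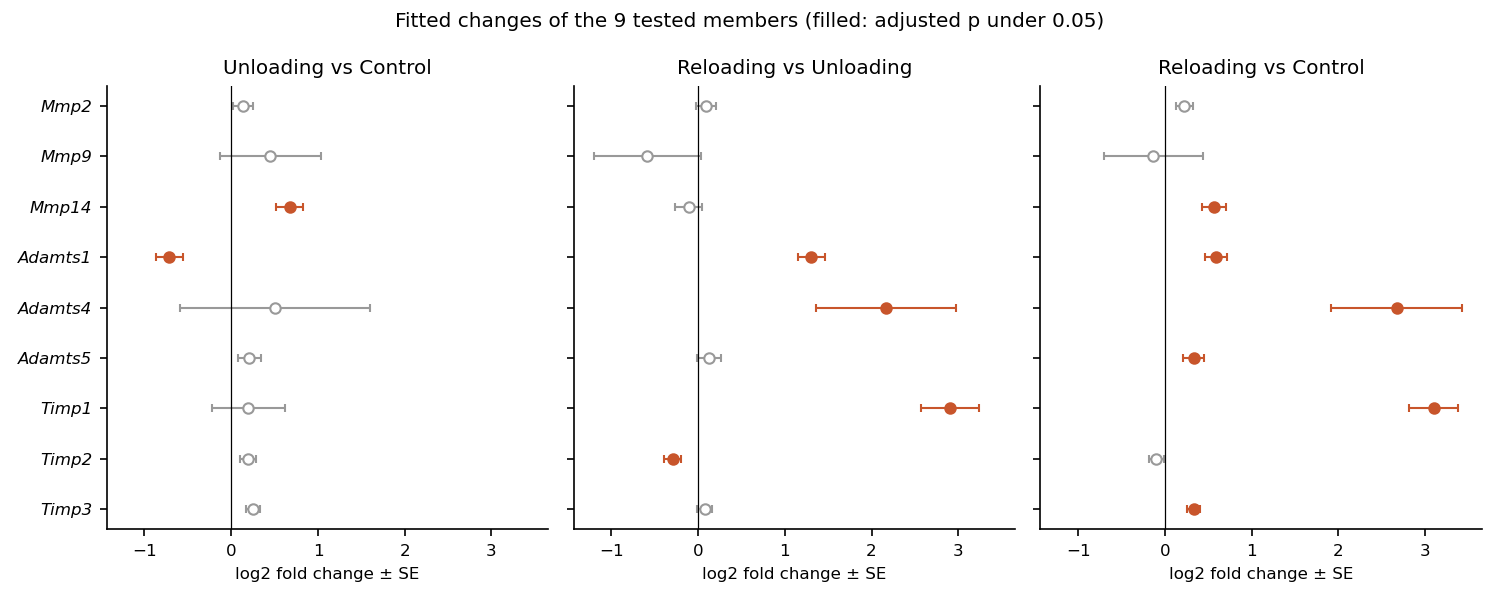
For each of the 9 tested members (rows), the fitted log2 fold change (horizontal axis) is drawn with its SE in each of the 3 comparisons, filled and coloured where the adjusted p was under 0.05. Adamts1 lies left of 0 at -0.71 in Unloading against Control and right of 0 at 1.31 in Reloading against Unloading, whereas Timp1 leaves 0 only where Reloading is compared.

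Levels per length of transcript allow members to be set beside each other. In reads per kilobase and 1000000 reads (RPKM, from TMM-scaled CPM and summed exon length), Timp2 stood first in every group, with 22.5 ± 2.45 (SD, n = 4) in Control, 25.7 ± 0.342 (n = 2) in Unloading and 21.0 ± 1.61 (n = 3) in Reloading. Adamts1 was second in Control at 9.59 ± 1.24 and in Reloading at 14.5 ± 2.15, and below Timp3 and Mmp2 in Unloading at 5.82 ± 1.52. The length of Timp3, 8144 bases, includes the 1733 bases shared with Syn3. Read pairs touching those bases were left out, so the RPKM of Timp3 is understated and its place beside Mmp2 and Adamts1 is uncertain. On the full length Timp3 and Mmp2 did not differ beyond their spread in Control, at 6.99 ± 0.304 and 6.80 ± 0.366, nor in Unloading, at 8.35 ± 1.01 and 7.47 ± 0.790. In Reloading they stood at 8.80 ± 0.309 and 7.99 ± 1.10. Adamts5 followed at 2.22 ± 0.178, 2.57 ± 0.206 and 2.80 ± 0.574 RPKM in Control, Unloading and Reloading. Mmp14, Mmp9 and Timp1 lay at 0.991 ± 0.118, 0.871 ± 0.76 and 0.724 ± 0.443 in Control, within each other's spread. In Reloading Timp1 stood at 6.49 ± 0.651, and its 3 values lay below all those of Mmp2 and above all those of Adamts5. Mmp3 and Adamts4 were last in every group, at 0.429 or less.

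The make-up of the pool of the 3 member inhibitors differed in Reloading. Timp4 is not a member and is left out of the shares, sums and ratios below. Its mean level was 21.1, 18.6 and 12.9 CPM in Control, Unloading and Reloading, beside 0.643, 0.777 and 5.77 for Timp1. Timp1 made up 0.85% to 3.84% of the summed RPKM of the 3 inhibitors in Control, 2.15% and 2.85% in Unloading and 17.0% to 18.6% in Reloading. The share of Timp2 was 71.4% to 76.0%, 71.7% and 75.6%, and 56.8% to 58.4% in the same order, and that of Timp3 overlapped between all groups at 20.3% to 26.3%. Among the 7 proteases Adamts1 made up 42.2% to 49.4% of the sum in Control, 27.6% and 33.5% in Unloading and 49.4% to 53.0% in Reloading. The summed level was 20.6 ± 1.78 RPKM for the proteases and 30.2 ± 2.67 for the inhibitors in Control, 18.9 ± 2.42 and 34.9 ± 0.863 in Unloading, and 28.1 ± 3.43 and 36.3 ± 2.25 in Reloading. Inhibitor RPKM per protease RPKM was 1.61, 1.62, 1.40 and 1.26 in Control, 2.07 and 1.67 in Unloading, and 1.22, 1.29 and 1.38 in Reloading. Both Unloading values were the highest of the 9, and Reloading overlapped Control. The inhibitor shares, sums and ratios use the understated RPKM of Timp3. These ratios are of transcripts, were not tested across genes and say nothing of the amount of active enzyme.

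**Figure D3:**
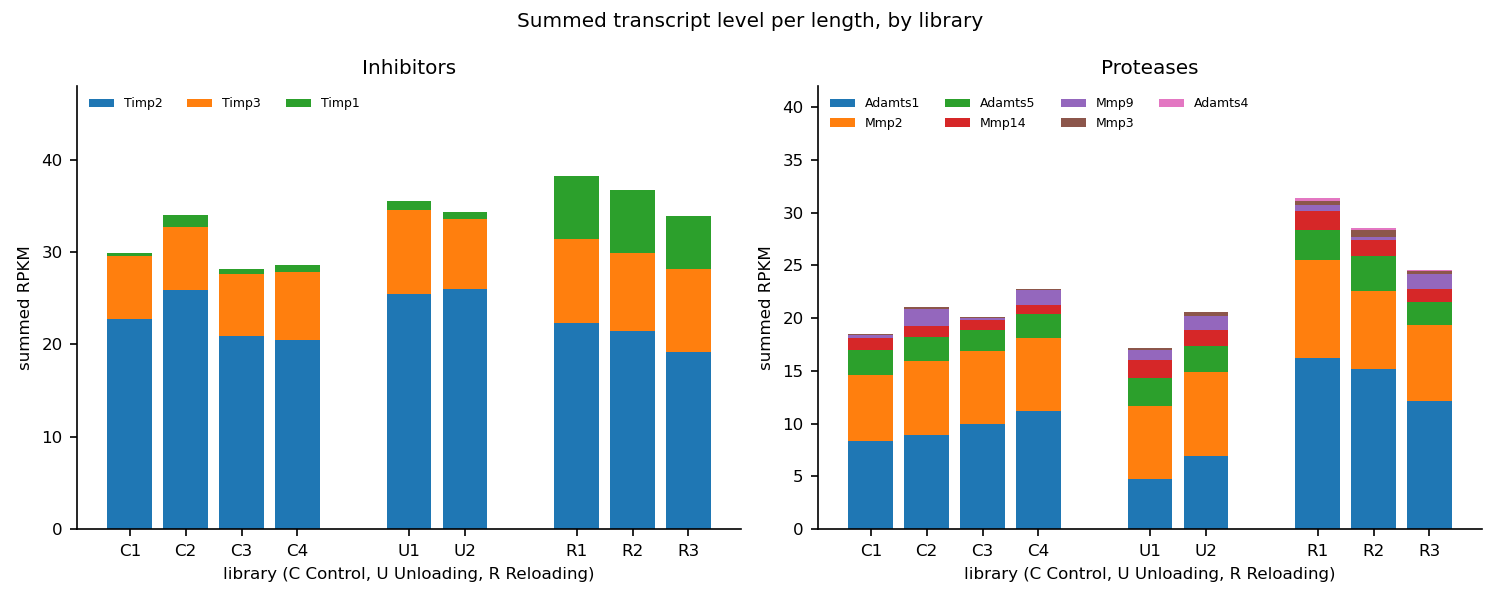
Stacked bars give the RPKM of the 3 inhibitors (left) and the 7 proteases (right) in each library, from 0, with C, U and R for Control, Unloading and Reloading. The Timp1 segment fills 17.0% to 18.6% of the inhibitor bar in the Reloading libraries and 3.84% or less in the others, and the Adamts1 segment is smallest in the Unloading libraries.

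The promoter windows of the members were read because AP-1, the Fos and Jun family of transcription factors, is known from textbook work to act at MMP and Timp1 promoters. RefSeq windows of GRCm38.p6, 250 bases before to 50 bases after the start, were found for 6 of the 10 members: Mmp3, Timp3, Timp2, Mmp14, Adamts1 and Timp1. The AP-1 motif TGANTCA, the motif TGACGTCA of the cyclic AMP response element and the CArG box were searched on both strands and are held by 7.81%, 1.79% and 1.63% of all 32851 windows. Only the Mmp3 window, of the 6, held any of these 3, a TGAGTCA whose first base lies 46 bases before the start. The letters TGAGTAA or their reverse complement, added after the first search, are in 2.68% of all windows and, among the 6, in that of Timp1, with the first base at position 27 of the transcript. The bases before the start are shown for Mmp3, which holds the match, and for Timp1 and Adamts1, which rose in Reloading, with matches in capitals and all 5′ to 3′ on the gene's strand. The Mmp3 stretch is chr9:7445572-7445821 (plus strand), that of Timp1 is chrX:20869916-20870165 (plus strand) with the 30 bases around its match at chrX:20870181-20870210, and that of Adamts1 is chr16:85803114-85803363 (minus strand).
Mmp3: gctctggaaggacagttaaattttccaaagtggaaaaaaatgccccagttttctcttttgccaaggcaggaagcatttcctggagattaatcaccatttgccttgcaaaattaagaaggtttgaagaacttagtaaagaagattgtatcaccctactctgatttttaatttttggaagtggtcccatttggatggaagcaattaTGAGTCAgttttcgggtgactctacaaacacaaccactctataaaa
Timp1, before the start: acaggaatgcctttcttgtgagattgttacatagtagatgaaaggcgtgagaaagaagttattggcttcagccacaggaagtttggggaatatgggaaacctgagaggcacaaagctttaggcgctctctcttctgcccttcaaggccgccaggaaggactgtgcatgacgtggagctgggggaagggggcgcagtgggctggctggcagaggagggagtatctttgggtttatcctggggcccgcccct
Timp1, around the match: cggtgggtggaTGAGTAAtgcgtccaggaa
Adamts1: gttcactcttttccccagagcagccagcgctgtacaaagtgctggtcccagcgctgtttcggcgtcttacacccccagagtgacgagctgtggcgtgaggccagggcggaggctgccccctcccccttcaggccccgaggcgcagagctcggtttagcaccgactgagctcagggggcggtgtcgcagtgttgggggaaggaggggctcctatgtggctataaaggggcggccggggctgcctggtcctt
The matches are letters in these windows. Binding was not measured.

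All 8 AP-1 subunit genes were called higher in Reloading against Unloading and against Control, 2 of them, Fosb and Fosl1, having passed the filter on low counts only with the Reloading libraries, and none passed the threshold in Unloading against Control. Atf3, a stress-responsive partner of Jun proteins, rose from 4.01 ± 0.0538 CPM in Unloading (SD, n = 2) to 196.5 ± 34.7 in Reloading (n = 3), by 5.61 ± 0.20 on the log2 scale with an adjusted p of 1.44e-10. Fos rose by 2.20 ± 0.39 (adjusted p = 0.000524) and Junb by 1.44 ± 0.27 (adjusted p = 0.000806) in the same comparison.

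Of the 117 genes in the 10 lists of related genes, 87 were tested. In Reloading against Unloading 45 were higher and 6 lower, beside 18.5% and 19.0% of all tested genes. In Reloading against Control 49 were higher and 6 lower, beside 22.1% and 21.3%. In Unloading against Control 3 were higher and 4 lower, beside 4.4% and 5.5%. The same shares stand beside the counts of each single list. Of the 87, 7 (Mmp10, Mmp17, Adamts3, Adam12, Acan, Fosb and Fosl1) passed the filter on low counts only with the Reloading libraries, so a call on them is a description. The 45 and the 49 include Mmp10, Adam12, Acan, Fosb and Fosl1, and the 49 also Mmp17. With scaling by library totals, 1 was lower in each comparison of Reloading instead of 6. Of 49 calls on the related genes named by rule, 36 held under every alternative.

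Among 16 other ADAMTS proteases, 11 were tested and 4 rose in each comparison of Reloading. Adamts9, which also cuts versican, rose by 1.84 ± 0.21 (adjusted p = 9.86e-06) against Unloading and by 1.86 ± 0.17 (adjusted p = 8.12e-07) against Control. Adamts20 rose by 1.02 ± 0.27 against Unloading (adjusted p = 0.00883) and Adamts10 by 0.43 ± 0.14 (adjusted p = 0.0217). The call of Adamts20 was lost without Unloading 2 (adjusted p = 0.168) and in the robust fit (0.0594), and that of Adamts10 in DESeq2 (0.0937), with no filter on low counts (0.051) and without Reloading 2, Unloading 1 or Unloading 2 (0.0507 to 0.116). Of 5 ADAMTS-like proteins, matrix proteins with no protease domain, Adamtsl5 rose by 1.41 ± 0.11 (adjusted p = 2.35e-07) and Adamtsl4 by 0.36 ± 0.11 (adjusted p = 0.0172, and 0.0716 and 0.232 without Reloading 3 and Unloading 2). Of 8 tested ADAM proteases, 4 rose and 1 fell against Unloading, and the 4 include Adam12, tested only with the Reloading libraries. Adam15 rose by 1.27 ± 0.16 (adjusted p = 3.49e-05), and Adam17, which sheds tumour necrosis factor from the membrane, rose by 0.51 ± 0.11 (adjusted p = 0.00178). Adam9 was lower by -0.30 ± 0.07 (adjusted p = 0.00456), a call lost with library totals (adjusted p = 0.585). Adam33 rose against Control by 0.55 ± 0.16 (adjusted p = 0.0105, or 0.0618 without Reloading 1 and 0.0552 without both libraries with skin transcripts).

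Of 19 other MMPs, 8 were tested, 2 rose in Reloading against Unloading and 3 against Control. Mmp10 in both counts and Mmp17 in the latter were tested only with the Reloading libraries. The remaining one, Mmp19, named here after its values were seen, rose by 1.495 ± 0.31 (adjusted p = 0.00165) and by 1.18 ± 0.26 (adjusted p = 0.00172). Mmp10, or stromelysin-2, a relative of Mmp3 on the same chromosome, is named here after its values were seen. It had 0 read pairs in all 4 Control and both Unloading libraries and 34, 27 and 25 in Reloading. With 3 read pairs taken as the limit over a group, it was at least 22.0-fold higher than in Unloading and at least 32.3-fold higher than in Control. Mmp10 passed the filter on low counts only through Reloading. The 3 Reloading libraries together held more Mmp10 (86 read pairs) than Mmp3 (32).

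The 3 tested genes listed with the inhibitors, Timp4, Spock2 and Reck, did not move as Timp1 did. Timp4, a TIMP known from heart and skeletal muscle, had 21.1 ± 1.12 CPM in Control, 18.6 ± 4.32 in Unloading and 12.9 ± 4.36 in Reloading. Timp4 fell by 0.71 on the log2 scale against Control (SE 0.17, adjusted p = 0.00382). Against Unloading it differed by -0.51 ± 0.20 (adjusted p = 0.0559), and 8 alternatives, among them those without Control 2, Reloading 3 or Unloading 2, gave adjusted p of 0.000425 to 0.0496. Spock2, a proteoglycan of the testican family, fell by 0.61 against Unloading (SE 0.19, adjusted p = 0.0196), and this call was lost with library totals (adjusted p = 0.13), without Reloading 1, Reloading 2 or Unloading 1 (0.0649 to 0.175) and without both libraries with skin transcripts (0.0749). Of the 6 genes of the list, 3 were tested, and the remaining one, Reck, did not pass the threshold in any comparison.

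In the plasminogen activator system, whose protease plasmin activates several pro-MMPs, 4 of 8 tested genes rose against Unloading and 5 against Control, with 2 lower against Control. Anxa2 and S100a10, which together form a plasminogen receptor, rose by 1.57 ± 0.12 (adjusted p = 2.68e-07) and by 0.67 ± 0.12 (adjusted p = 0.000686). Plat, the tissue plasminogen activator, rose against Control by 0.60 ± 0.20 (adjusted p = 0.0234, and 0.0589 to 0.0721 without Control 3, Control 4, Reloading 1 or Reloading 3).

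Among 8 activation and clearance partners 1 rose and 3 fell against Unloading. Cd44, a hyaluronan receptor that binds MMP9 and MMP14, rose by 1.77 ± 0.17 (adjusted p = 2.05e-06). Pcsk6, a convertase that cuts propeptides, was lower by -0.44 ± 0.12 (adjusted p = 0.00951) and Bsg, an inducer of MMPs, by -0.35 ± 0.07 (adjusted p = 0.0019). With library totals these had adjusted p of 0.202 and 0.289, and without Unloading 2 Pcsk6 had 0.134. Lrp1, the receptor that clears protease and inhibitor complexes, rose by 0.58 ± 0.08 (adjusted p = 3.3e-05) and Pcsk5, another convertase, by 0.65 ± 0.24 (adjusted p = 0.0426), both against Control. The call of Pcsk5 was lost in DESeq2 (adjusted p = 0.139) and without Control 3, Control 4 or any single Reloading library (0.0641 to 0.138).

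Of 24 tested matrix substrates, 18 rose and 1 fell in Reloading against Unloading, and 19 rose and none fell against Control. Acan, tested only with the Reloading libraries, is counted in the 18 and in the 19. The median log2 fold change of the 24, Acan included, was 0.84 and 0.67, beside 0.03 and 0.01 over all tested genes, and is given as a description. Thbs1, or thrombospondin-1, rose by 2.33 ± 0.22 (adjusted p = 2.6e-06) against Unloading. The basement membrane collagen genes Col4a1 and Col4a2 rose by 2.07 ± 0.22 (adjusted p = 6.08e-06) and 1.88 ± 0.17 (adjusted p = 1.37e-06). In Unloading against Control 2 substrates were higher and 2 lower. Of 4 tested genes for cytokines and growth factors that induce MMPs or TIMPs, Tgfb1 rose by 1.35 ± 0.25 (adjusted p = 0.000601) and Tgfb2 by 0.63 ± 0.14 (adjusted p = 0.00208) in Reloading against Unloading, and the other 6 of the 10 listed had too few counts to be tested.

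**Figure D4:**
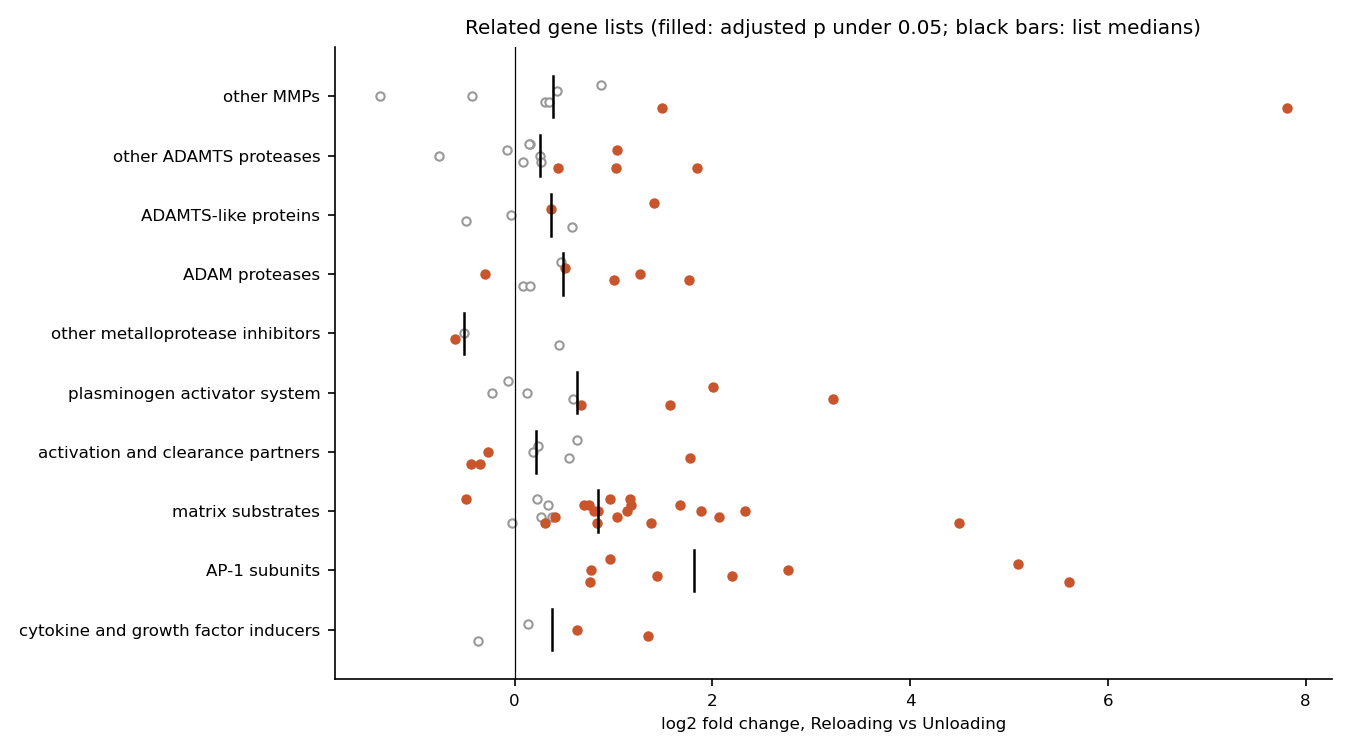
Each point is 1 tested gene of a related list (rows) at its fitted log2 fold change in Reloading against Unloading (horizontal axis), filled where the adjusted p was under 0.05, and black bars mark list medians. All 8 AP-1 points and 18 of 24 matrix substrate points are filled on the right, and the point farthest right is Mmp10, whose fitted value depends on the prior count because it had 0 read pairs in Unloading.

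The genes with the pattern most like a member were named by the root mean square (RMS) difference of log2 CPM centred per gene over the 9 libraries, among 9873 genes. Among the genes closest to Timp1 were Ankrd2, a stretch-responsive muscle protein, and Enah, at 0.32 and 0.36 on the log2 scale, beside an RMS of 1.45 for Timp1 itself. Adamts1 lay closest to Efr3b, Scly and Myod1, the myogenic transcription factor, at 0.11, 0.18 and 0.19, beside 0.52 for itself. Mmp14 lay closest to Igf1r, the receptor of insulin-like growth factor 1, at 0.09, followed by Adam33 and Cwc25 at 0.12 and 0.13, beside 0.34. For Adamts4 the closest were Prx and Hmox1 at 0.42 and 0.43, beside 0.97. Mmp9 had no close neighbour: Ctsk, Spp1 and Arrdc2 lay at 0.68, 0.68 and 0.80, beside 1.05. Members with little variation lay near genes with little variation. Timp3 was closest to Celf1, Epb41l2 and Virma (0.03, 0.04 and 0.05), Mmp2 to Eif4a3, Zfp384 and Cars (0.04, 0.05 and 0.06), Timp2 to Proser1, Foxp1 and Gpam (0.06 each) and Adamts5 to Kin, Pphln1 and Cdk7 (0.07, 0.10 and 0.11). These distances are descriptions over 9 libraries that share groups and depth.

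**Figure D5:**
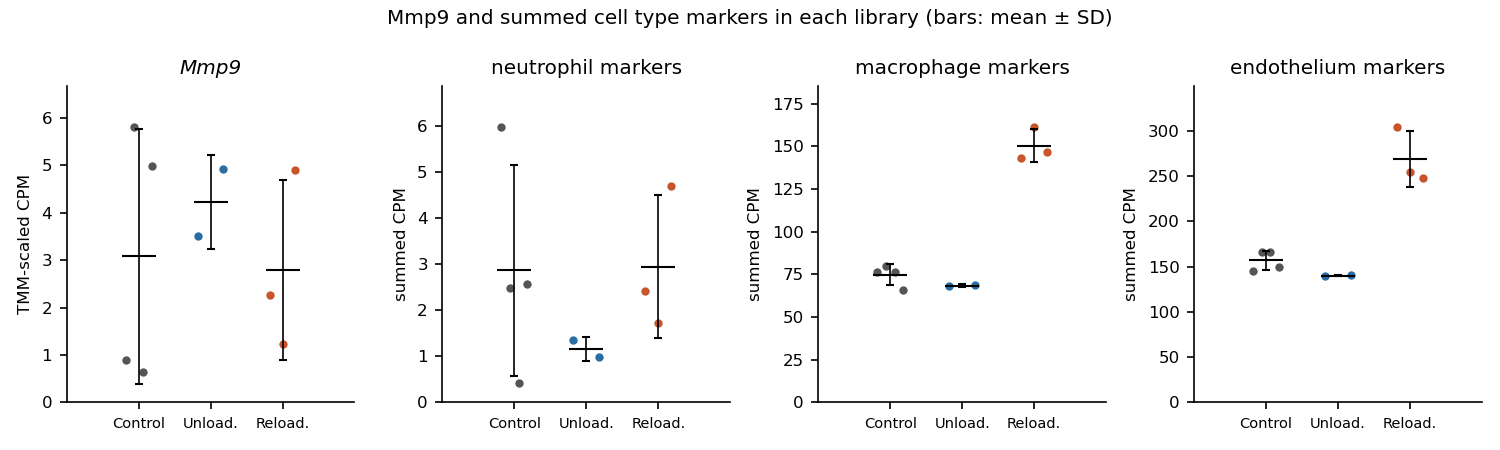
TMM-scaled CPM of Mmp9 and the summed CPM of 8 neutrophil, 8 macrophage and 6 endothelial markers are plotted by group, a point for each library with black bars for the mean ± SD. Mmp9 spans 0.643 to 5.80 CPM within Control, while the macrophage and endothelial sums of the 3 Reloading libraries lie above all others.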

How the data were processed

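RNA was extracted from gastrocnemius with Trizol and polyadenylated RNA was sequenced. The authors aligned reads to GRCm38.p6 with STAR 2.7.3a and assigned read pairs to genes of Ensembl release 102 with featureCounts 2.0.3, ignoring strand. The deposited table holds raw counts. The study's methods describe single reads, whereas the labels and the table state pairs. The deposited DESeq2 tables (fold changes and p-values of the authors' comparisons) gave gene symbols only.

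Genes were kept by filterByExpr (minimum count 10, minimum total 15), and 14851 were tested in edgeR 4.0.16 (R 4.3.3) with 9 libraries in 1 fit, the group as the only term, TMM scaling, a two-sided quasi-likelihood F-test and Benjamini-Hochberg adjustment within each comparison, with a threshold of 0.05. SE was taken from the F statistic. Log2 CPM used a prior count of 2. The steps were tested on simulated data. Alternatives included DESeq2 1.42.0. The members and all gene lists were chosen with earlier results of these data known. Of 195 listed symbols 194 matched. Named beside the members were, per related list and comparison with Reloading, up to 3 called genes with the largest change (mean log2 CPM 1 or more), and per member the 3 nearest genes (mean log2 CPM 2 or more). A table of protein sequences was not used here. Some genes that the rule names are not reported here.

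Replicates of a group differed by more than sampling noise (chi-square per degree of freedom 3.71 to 8.74). The leading numbers in the sample descriptions, which differ from those in the titles, pair Control with Reloading in 3 pairs whose deviations correlated at 0.361, 0.143 and 0.155. The first pair is Control 2 with Reloading 1, the libraries with skin transcripts. A block for these pairs changed no call of a member in that comparison.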

Additional observations from a re-analysis of the deposited data

Results flagged for a closer look

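Of 13 quantities checked in the 4 Control libraries for a sample far from the others, 1 was singled out, where chance singles out about 1 in 20. Control 1 had 21.1 CPM of Mmp2, below the other Control libraries at 23.4 to 23.7 CPM, with a gap of 0.89 of the whole range.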

How the results depend on the processing

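Both rises of Timp1 and of Adamts1 in Reloading, and those of Mmp14 and Timp3 against Control, kept their direction and stayed past the threshold in all 18 alternatives. Adamts4 has no value without Reloading 1, without Reloading 2 or without both libraries with skin transcripts, where it failed the filter on low counts. In Reloading against Unloading it had no value in DESeq2 either. With library totals 5 members were higher and 0 lower in Reloading against Unloading instead of 3 (Adamts4 included) and 1, the added ones being Mmp2 and Timp3, and with no filter on low counts 2 were lower, the added one being Mmp9. In Unloading against Control 2 members were higher instead of 1, the added one being Timp3, with no filter and in the robust fit. With no filter the SE in Reloading against Unloading was 0.23 instead of 0.62 for Mmp9 and 0.13 instead of 0.20 for Timp4. Calls gained with no filter are therefore given as a description. Leaving out single libraries gave 0 to 1 lower members in Reloading against Unloading, 0 to 2 higher and 0 to 1 lower members in Unloading against Control, and 121 to 1518 called genes in the latter, against 1470. The lowest count was without Unloading 1, and without Control 3 it was 949.

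The deviations of Control and Reloading libraries that share a title number correlated at -0.191, -0.201 and -0.0165. The 2 Unloading libraries deviate from their mean in opposite directions, so correlations with them cannot tell whether either number pairs the samples. With the replicate block by either number 0 members were lower in Reloading against Unloading, since Timp2 then had an adjusted p of 0.0628 (titles) or 0.132 (descriptions), and with the block by title 0 were higher in Unloading against Control, where Mmp14 had 0.0644. The blocks changed no other call of a member. Among the related genes named, Adamtsl4 in Reloading against Unloading had 0.0652 (titles) and 0.0831 (descriptions), Adamts10 had 0.132 (descriptions), and Plat and Pcsk5 in Reloading against Control had 0.076 and 0.0879 (titles). Timp4, Plat and Pcsk5 came under the threshold in Reloading against Unloading, at 0.0418, 0.0092 and 0.0193 (descriptions), as did Timp4 and Plat at 0.0166 and 0.0357 (titles).

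The signs below turned for differences that had not passed the threshold, and none passed after turning; the cause was not tested. In Reloading against Unloading, Mmp14 was 0.14 with library totals and 0.13 with the description block, and Mmp2 was -0.028 without both libraries with skin transcripts. Over single libraries left out, Mmp2 ranged from -0.025 to 0.20, Mmp14 from -0.24 to 0.022, Adamts5 from -0.028 to 0.28 and Timp3 from -0.051 to 0.20. In Unloading against Control, Adamts4 was -0.40 and -0.049 with the title and description blocks and ranged from -0.48 to 0.96, and Timp1 from -0.018 to 0.62, over single libraries left out. In Reloading against Control, Mmp9 was 0.11 with library totals, 0.51 without both libraries with skin transcripts, 0.30 with the title block and -0.85 to 0.37 over single libraries left out, and Timp2 was 0.14 with library totals.

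In TPM, which does not hold the typical gene level, the log2 ratio of summed proteases in Reloading to Unloading was 0.91 instead of 0.58, and that of summed inhibitors 0.39 instead of 0.06. Without Unloading 1 the log2 ratio of inhibitors per protease in Unloading to Control was 0.18 instead of 0.34. Depth limits Adamts4, Mmp3 and, in Control and Unloading, Timp1.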
